A study of Mus musculus with 4 samples.

Results

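The comparison sets the last age of a lung fibroblast time course, postnatal day 28 (P28), against the first, embryonic day 16.5 (E16.5). It uses 2 of the 4 RNA-seq libraries of the series, and the other 2, from embryonic day 18.5 (E18.5) and postnatal day 7 (P7), are given beside them as a description. All 4 came from lungs of wild-type mice of strain C57BL6, collected after timed matings, and the cells are labelled Pdgfra+ fibroblasts, named for the alpha receptor of platelet-derived growth factor (PDGF). How the cells were isolated is not given in the labels. Each age has 1 library. The number of animals behind a library and their sex are not given in the labels. Levels are FPKM, fragments scaled to transcript length and library size, divided by a factor per library so that the typical gene sat at the same level in all 4. A gene was compared when it reached 5 scaled FPKM in the higher of the 2 libraries, which held for 6656 of 23444 gene symbols. With 1 library a side there is no spread between animals, so every difference below is a difference in size between libraries, without a test. Differences are P28 minus E16.5 in log2(scaled FPKM + 1), written as log2 differences, and they understate the change of genes with low levels.

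At E16.5 the mouse lung is still branching and its mesenchyme is dividing. Alveoli form after birth, when septa grow into the air sacs, elastin is laid down at their tips and contractile myofibroblasts appear for a time. Once the septa stand, the fibroblasts that remain in the wall maintain matrix, support the epithelium and take part in local defence and detoxification. PDGF-A signalling through Pdgfra is known for its role in forming the alveolar myofibroblast, and Pdgfra is also carried by the matrix and lipid-storing fibroblasts of the adult alveolus.

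In order of age, which is the order of every set of 4 values below, Pdgfra (on GRCm38 chromosome 5, 75152292 to 75198215, plus strand) was at 77.3, 165, 82.0 and 174 scaled FPKM. After scaling the E18.5 and P28 libraries were the high ones, and the difference between the ends was 1.16. Before scaling the values were 88.7, 95.9, 113 and 188, so the place of E18.5 depends on the scaling. Statements below that place E18.5 among the libraries refer to scaled values. The general fibroblast transcripts Col1a1, Col3a1, Dcn and Vim, for 2 chains of fibrillar collagen, the proteoglycan decorin and the filament protein vimentin, were also abundant at both ends. The libraries differed in their content of transcripts of other cells. The alveolar type 2 list, for the epithelial cell that makes surfactant, held 0.582% of the FPKM sum in the E16.5 library and 8.71% in that of P28. Without Lyz2, a lysozyme that macrophages make too and that has a close copy, Lyz1, those shares were 0.0516% and 6.41%. Genes of the airway epithelium list summed to 0.0488% and 9.58%. Most of the latter was the club cell secretoglobin Scgb1a1, without which the shares were 0.0477% and 0.837%. With both Lyz2 and the surfactant protein gene Sftpc left out, the alveolar type 2 list held 0.0392% and 1.8%.

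Both lists together, with Scgb1a1, Sftpc and Lyz2 included, held 18.3% of summed FPKM at P28. The libraries of the ages between held 0.262% and 0.133%, so that among the 4 libraries P28 stood apart. The macrophage and granulocyte list without Lyz2 took the opposite course, with 0.637%, 0.0913%, 0.00462% and 0.00509%. Its defining markers Ptprc and Cd68, a leukocyte surface phosphatase and a macrophage lysosomal protein, stood under 1 scaled FPKM at P28, and C1qb was listed at 0 there. The endothelial list held 0.0315% at the first age, 0.223% at the last and 0.933% in the P7 library. Nerve and cartilage lists had no member at 5 scaled FPKM in either library. A lower level can reflect fewer cells of a type in the sample or less RNA per cell, and in these bulk libraries the 2 cannot be told apart. The E16.5 and P28 libraries were alike in Xist, the transcript of the inactive X chromosome, at 0.0103 and 0.0495 scaled FPKM, and in the Y-linked helicase gene Ddx3y, at 5.24 and 5.65, while the P7 library stood apart with 63.4 for Xist and Ddx3y listed at 0.

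**Figure D1:**
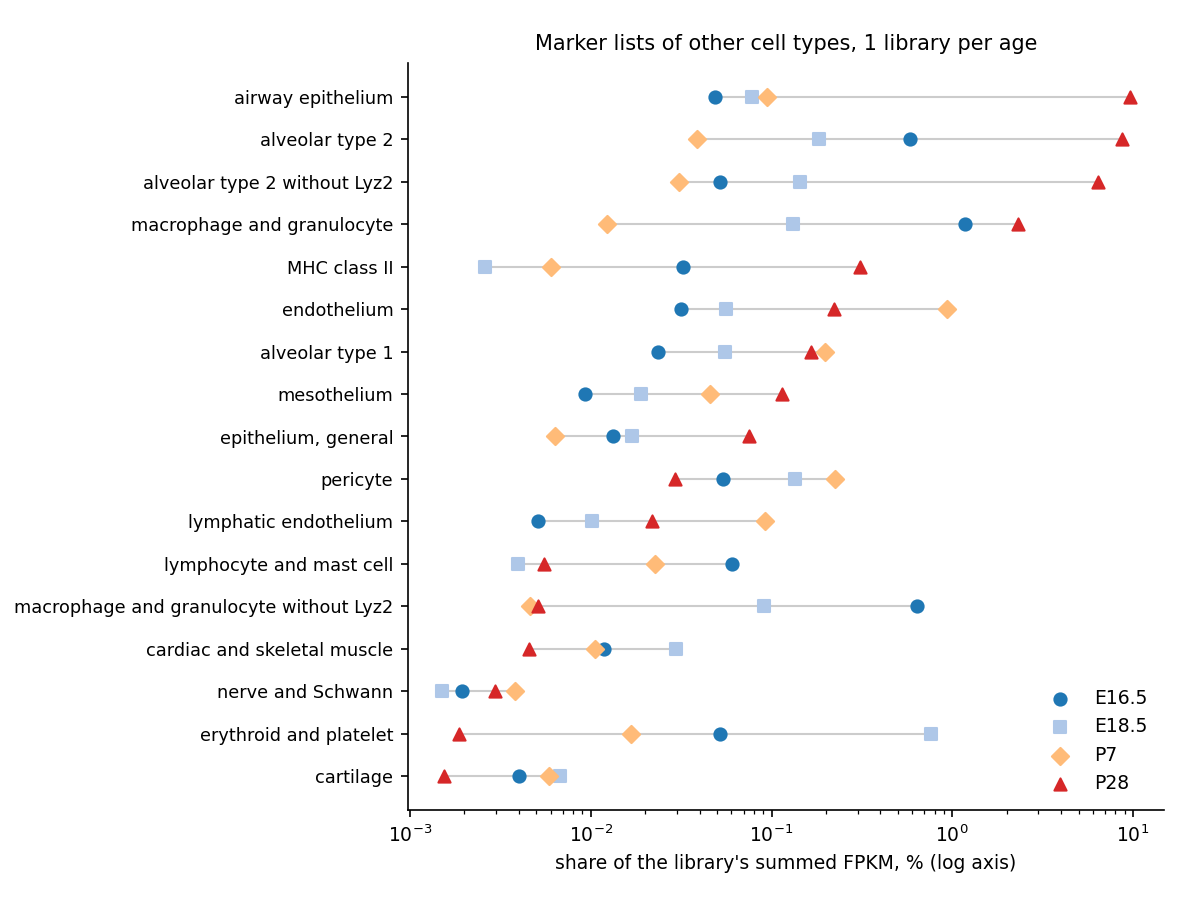
Share of each library's summed FPKM (percent, log axis) held by the marker lists of other cell types, with each point 1 library. The P28 library lies far to the right for airway epithelium (9.58%) and alveolar type 2 cells (8.71%), and the E16.5 library lies to the right of P28 for macrophages and granulocytes once Lyz2 is left out (0.637% against 0.00509%). Without Scgb1a1, which is not drawn apart, the airway share at P28 was 0.837%.

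Of the 6656 genes compared, 1311 (19.7%) had a level 2-fold or more higher at P28, 997 (15%) a level 2-fold or more lower, and 4348 lay between. These shares are the background against which the members of each gene list below are read. The median log2 difference of all genes compared was 0.02, with quartiles of -0.59 and 0.76. Large differences were more often toward P28: at 8-fold or more there were 268 higher and 179 lower genes, and at 64-fold or more 32 and 18. Close to the 2-fold threshold, 212 genes lay within 0.1 log2 inside it and 293 within 0.1 outside it. The minimum level also cuts through a dense range, with 741 genes at 5 to 6 scaled FPKM in the higher library and 879 left out at 4 to 5.

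Most of the higher genes had their highest level of the course at P28. This held for 1063 of the 1311, and 343 climbed through the 4 ages in order. These genes, and the lower ones, were picked by their P28 and E16.5 levels, which favours P28 as an extreme. By that rule E16.5 could not be the highest library of a higher gene or the lowest of a lower one. P7 stood a median of 31.7% of the way from E16.5 to P28 on the log2 scale, and 593 of these genes had covered at most 25% of the way by then. Of the 997 lower genes, 760 were lowest at P28 and 245 descended in order of age. Their median position was 51.2% at E18.5 and 49.8% at P7, but single genes were spread widely around it. At E18.5, 339 had covered at most 25% of the way, 312 at least 75%, and 346 lay between. The same counts at P7 were 245, 338 and 414.

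**Figure D2:**
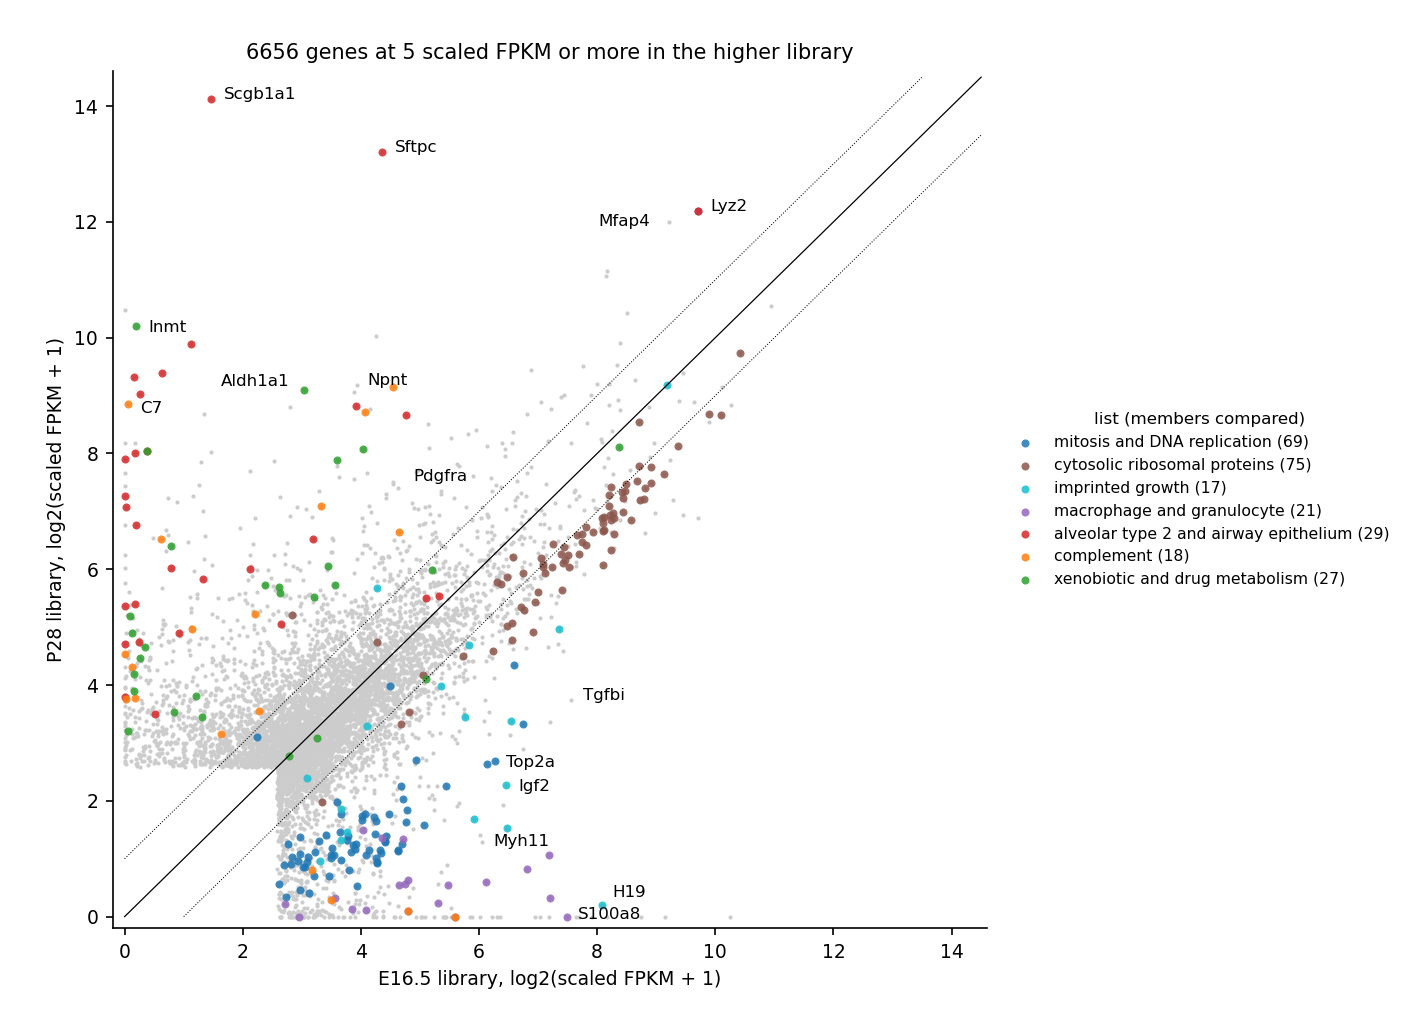
Level of each of the 6656 genes compared in the E16.5 library (x axis) and the P28 library (y axis), both as log2(scaled FPKM + 1). The solid line marks equal levels, the dotted lines a difference of 1, and a gene on several coloured lists has the colour drawn last. Alveolar type 2 and airway genes fill the upper left with Inmt and C7, mitosis and leukocyte genes the lower right, and ribosomal protein genes form a band below the diagonal.

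The largest differences were taken among genes at 10 scaled FPKM or more, with predicted genes and small RNAs passed over. The 15 largest positive log2 differences were led by transcripts of epithelium: 11 of the 15 genes are on the list of another cell type. Scgb1a1, the secretoglobin of airway club cells (GRCm38 chromosome 19, 9083636 to 9087958, minus strand), was at 1.76, 43.7, 19 and 17848 scaled FPKM, and Sftpc, surfactant protein C (chromosome 14, 70520949 to 70524081, minus strand), at 19.5, 171, 11.3 and 9406. The P28 library was the highest of the 4 for both. The same held for Sftpa1 and Sftpb, further surfactant proteins, at 639 and 669.7 at P28, for the phosphate carrier Slc34a2 at 523, and for the club cell enzymes Cbr2 and Cyp2f2 at 951 and 262. Sftpd and Scgb3a1 were listed at 0 at E16.5 and stood at 153 and 239 at P28, Cxcl15, a chemokine of lung epithelium, at 256, and Hc, complement C5, at 133. The 4 genes of the 15 that are on no such list were Inmt, C7, Sod3 and Scd1, described with their groups.

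At the other end, again with predicted genes and small RNAs passed over, H19, an imprinted noncoding RNA, had the most negative log2 difference (-7.88). Most of the rest were leukocyte transcripts. Of the 15 largest negative log2 differences, 8 are on lists of other cell types, among them the calprotectin subunits S100a8 and S100a9 (179 and 112 scaled FPKM at E16.5), the protease Ctss (146) and the adaptor Fcer1g (144). The stefin A genes Stfa1, Stfa2, Stfa2l1 and Stfa3, cysteine protease inhibitors of myeloid cells that sit together on chromosome 16, stood at 130.2, 123, 205 and 63.6 at E16.5, and all 4 were listed at 0 at P28. They are near-identical copies, so the split of reads among them is uncertain. Stefins are not on the marker list, nor are Il1b, the cytokine interleukin 1 beta, at 44.8 at E16.5 and 0.109 at P28, and Ngp, a neutrophil granule protein, at 36.5 and listed at 0. Embryonic globin Hba-x was at 41.3 at E16.5, higher still at E18.5 (141), and listed at 0 at both postnatal ages.

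Some of the highest values belonged to single small RNAs. Mir25 stood at 1209 at E16.5 and Mir568 at 1419 at P28, and each was listed at 0 in the other 3 libraries. Both loci are very short (GRCm38 chromosome 5, 138165321 to 138165404, and chromosome 16, 43640655 to 43640737). FPKM is scaled to length, so few fragments can give a high value there, and their number is unknown. Apart from these and the predicted gene Gm20594, the E16.5 library was headed by ribosomal protein genes (Rpl10 1362, Rpl41 1228, Rpl10a 1089 and Rpl39 949), cytoplasmic actin Actb (1107), the elongation factor Eef1a1 (946), the nucleolar protein Npm1 (835) and Lyz2 (833). The P28 library was headed by Scgb1a1, Sftpc and Lyz2 (4692), followed by the matrix genes Mfap4 (4078), Mgp (2276) and Sparc (2146), the nuclear RNA Malat1 (1369) and the methyltransferase Inmt (1178).

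Genes of cell division were lower at P28 almost without exception. On the mitosis list 37 of 38 members compared were at least 2-fold lower and 0 higher, with a median log2 difference of -2.73, against 0.02 over all genes and a background of 15% lower. On the DNA replication list 30 of 31 were lower, with a median of -2.25, and 14 further members stayed under the minimum. Top2a, the topoisomerase that untangles sister chromatids, stood at 76.4, 12.3, 41.3 and 5.43 scaled FPKM, and Mki67, the proliferation antigen Ki-67, at 69.0, 21.1, 39.0 and 5.18. P28 was the lowest library for both, and P7 stood above E18.5. Ube2c, the ubiquitin conjugase of the anaphase-promoting complex, was at 106, 22.1, 47.5 and 9.0, the mitotic kinesins Cenpe and Kif11 had log2 differences of -3.49 and -3.45, and cyclin B2, Ccnb2, one of -3.47. The S phase genes named here were lower at P28 than at E16.5 as well. Pcna, the clamp of the replicative polymerases, was at 95.6, 56.5, 51.7 and 19.3, with E18.5 just above P7. Rrm2, the ribonucleotide reductase subunit that limits nucleotide supply, was at 32.5, 2.09, 22.8 and 1.99, with E18.5 and P28 near level. Uhrf1, which guides maintenance methylation, the replication complex member Gins2 and the helicase subunits Mcm2 and Mcm6 had log2 differences of -3.40, -3.18, -3.04 and -2.94. Of these, Gins2 was lowest at E18.5, at 2.60 scaled FPKM against 3.79 at P28.

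Promoter sequence was not used by the comparison. A cell cycle homology region, TTTGAA, and CCAAT boxes are the textbook elements of promoters that are active in the G2 and M phases, the first bound by the DREAM and MuvB complexes and the second by NF-Y. In windows of 250 bases before to 50 after the start, taken from RefSeq on GRCm38.p6 and searched on both strands, TTTGAA was found in 25 of 32 promoters (78.1%) of 30 of the 37 lower mitosis genes, CCAAT in 25 (78.1%) and both in 22 (68.8%). Over all 32851 promoters of the reference table the shares were 17.9%, 37.4% and 6.95%. In 30 promoters of 24 of the 30 lower replication genes TTTGAA was found in 13.3% and CCAAT in 66.7%. CCAAT was also above the reference share in the higher xenobiotic genes, in 56.5% of 23 promoters of 18 of the 22, where TTTGAA was found in 17.4%. The mitosis promoters differ from the reference in base composition too, with a median GC content of 59.0% against 52.7% and an observed over expected CpG ratio of 0.883 against 0.384. A match of letters is a description and not a binding site. Since 37 of 38 mitosis and 30 of 31 replication genes compared were lower, these shares describe the lists and not the difference between the libraries. The reference was not limited to genes compared here. The 3 mitosis genes with the largest differences that hold TTTGAA in the 250 bases before the start were Top2a, Mki67 and Ccnb2, whose sequences follow, 5′ to 3′ on the strand of the gene and ending at the base before the start, with CCAAT and TTTGAA on either strand in capitals.
Top2a, chr11:99024190-99024439, minus strand: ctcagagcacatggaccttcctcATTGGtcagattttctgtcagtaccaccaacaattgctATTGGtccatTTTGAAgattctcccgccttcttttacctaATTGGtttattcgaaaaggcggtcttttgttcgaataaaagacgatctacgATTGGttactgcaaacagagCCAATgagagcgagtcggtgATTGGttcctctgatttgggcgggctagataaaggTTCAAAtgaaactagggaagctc
Mki67, chr7:135716380-135716629, minus strand: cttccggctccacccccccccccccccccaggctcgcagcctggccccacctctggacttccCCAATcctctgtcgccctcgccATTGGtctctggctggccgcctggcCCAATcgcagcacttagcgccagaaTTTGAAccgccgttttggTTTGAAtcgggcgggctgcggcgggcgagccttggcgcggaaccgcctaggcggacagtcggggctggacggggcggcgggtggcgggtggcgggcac
Ccnb2, chr9:70421555-70421804, minus strand: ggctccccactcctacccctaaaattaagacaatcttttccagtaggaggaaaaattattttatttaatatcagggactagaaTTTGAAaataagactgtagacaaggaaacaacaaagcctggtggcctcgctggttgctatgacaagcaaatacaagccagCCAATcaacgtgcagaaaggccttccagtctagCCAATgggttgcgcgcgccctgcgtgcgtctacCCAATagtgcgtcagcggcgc
The Top2a window holds 6 CCAAT matches and 2 of TTTGAA, that of Mki67 3 and 2, and that of Ccnb2 3 and 1.

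The G1 regulators did not share this pattern. Of 12 members compared 4 were lower and 2 higher, with a median of 0.04, or -1.75 with a minimum of 20 scaled FPKM. Myc, the growth-promoting transcription factor, was at 21.9, 72.3, 13.9 and 2.07 scaled FPKM, and the cyclin-dependent kinase Cdk4 at 73.8, 31.8, 43.5 and 21.2. Both were lowest at P28, while Ccnd1, the cyclin D1 partner of Cdk4, was higher at P28 than at E16.5, at 5.40, 5.06, 37.7 and 17.2, with its peak at P7. Cdkn1c, an imprinted inhibitor of cyclin-dependent kinases, was lower (log2 difference -2.31).

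Imprinted genes of fetal growth were lower at P28 in 13 of 17 cases, and 1 was higher, with a median of -2.31. H19 (GRCm38 chromosome 7, 142575529 to 142578143, minus strand) was at 269.6, 468, 13.6 and 0.146 scaled FPKM, and its neighbour on chromosome 7, the fetal growth factor gene Igf2 (chromosome 7, 142650766 to 142666816, minus strand), at 87.0, 147, 11.7 and 3.86. Before scaling E16.5 stood above E18.5 for both, at 309 and 272 for H19 and 99.8 and 85.2 for Igf2. After scaling E18.5 was the highest library for both and P28 the lowest, with the main step between E18.5 and P7. Plagl1, a zinc finger factor that regulates other imprinted genes, followed the same order at 87.6, 134, 28.1 and 1.90, whereas Mest, a hydrolase-like gene expressed from the paternal allele, was still at 69.9 at P7 and stood at 2.20 at P28. Gnas, the stimulatory G protein subunit, was near level at 578, 391, 614 and 579.9. The fetal RNA-binding and high mobility group list was lower in 12 of 15 (median -2.29): the growth factor midkine, Mdk, was at 142, 184, 109.9 and 24.1, its relative pleiotrophin, Ptn, at 25.6, 37.2, 3.47 and 1.52, and Igf2bp3, which binds Igf2 messenger RNA, at 12.6, 7.21, 1.69 and 0.745. The chromatin protein Hmgb2 and the transcription factor Sox11 had log2 differences of -3.39 and -2.43. Among chromatin regulators Ezh2 and Ezh1, the alternative methyltransferases of Polycomb repressive complex 2, went opposite ways, Ezh2 at 30.8, 12.4, 15.7 and 4.30 and Ezh1 at 2.77, 3.69, 4.61 and 8.41, and the maintenance methyltransferase Dnmt1 was lower (log2 difference -2.23).

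**Figure D3:**
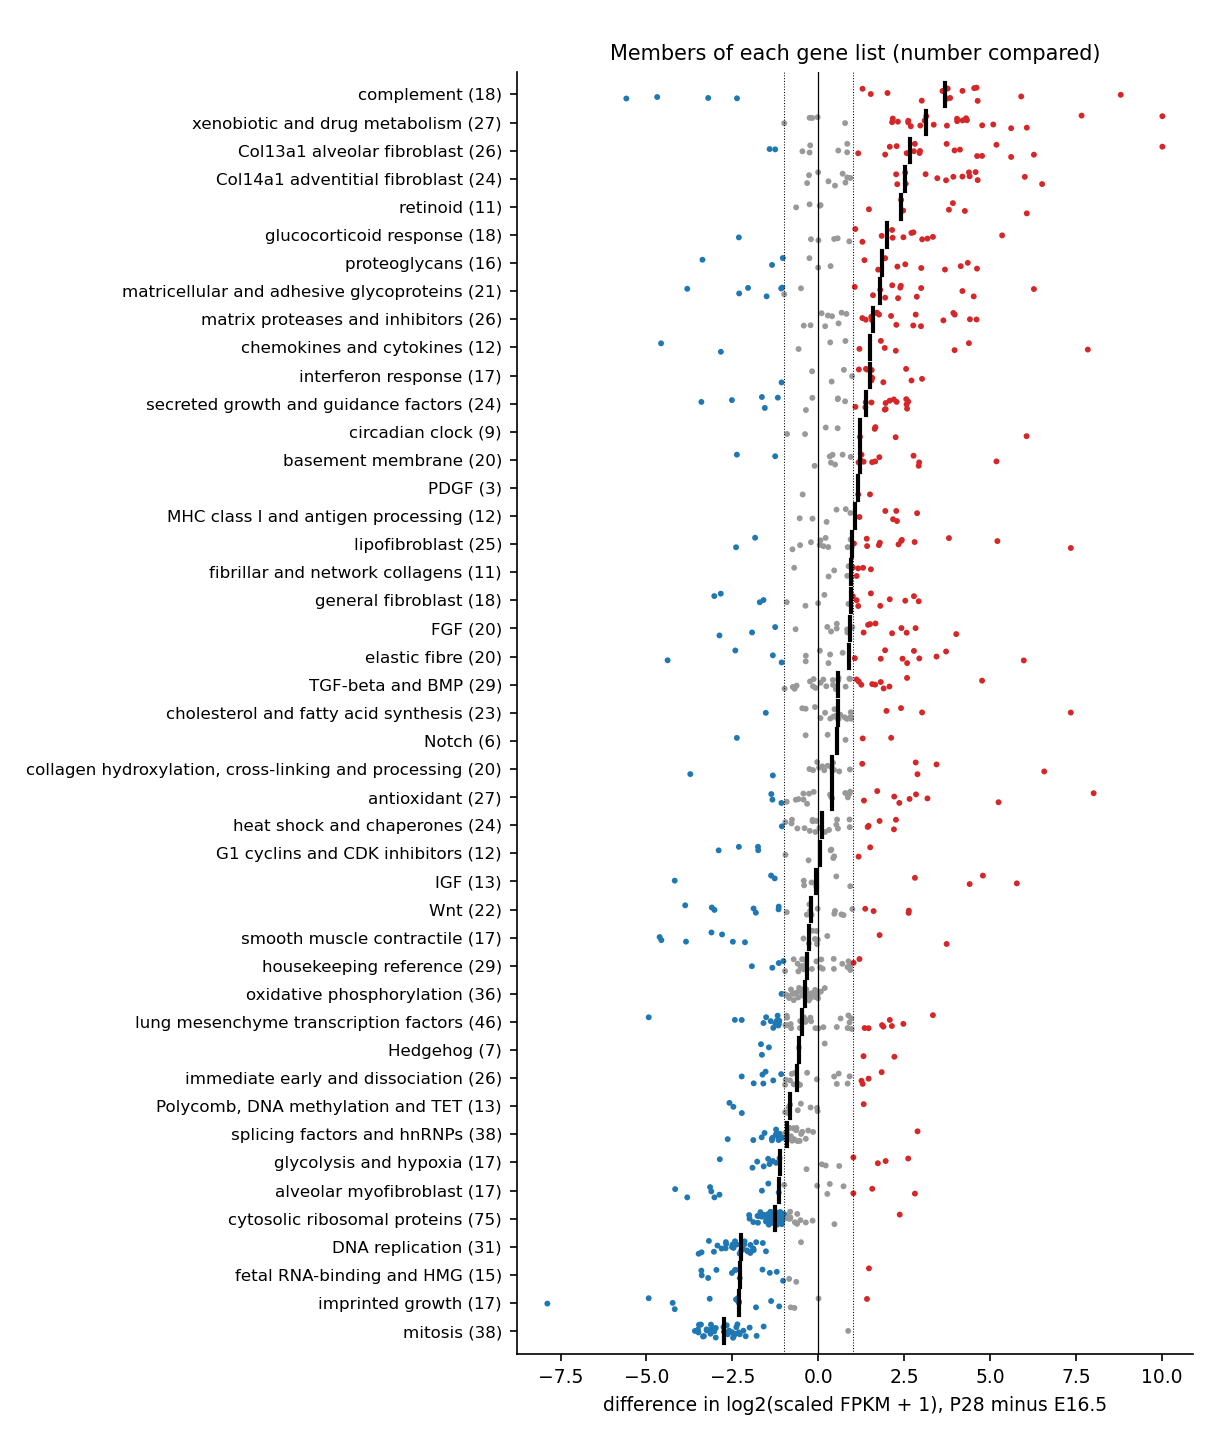
Log2 difference (P28 minus E16.5, x axis) of every member compared, 1 point per gene, for each gene list with 3 or more such members and not describing another cell type. Red and blue points are at least 2-fold higher and lower, bars mark list medians and lists are ordered by them, from mitosis (-2.73) at the bottom to complement (3.68) at the top.

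Markers of fibroblast subtypes separated the 2 libraries. Of the 26 genes of the Col13a1 alveolar fibroblast list 18 were higher and 2 lower (median 2.67), and of 24 members compared of the Col14a1 adventitial list 15 were higher and 0 lower (median 2.53), against 19.7% and 15% of all genes. The general fibroblast list gave 9 higher and 4 lower of 18. Inmt, which methylates indole amines (GRCm38 chromosome 6, 55170626 to 55175043, minus strand), was at 0.148, 1.83, 1.65 and 1178 scaled FPKM with P28 far above the other 3. Npnt, the integrin ligand nephronectin (chromosome 3, 132881745 to 132950291, minus strand), was at 13.8, 15.7, 48.7 and 536, and Itga8, a chain of the integrin that binds it, at 7.99, 8.19, 8.26 and 118, both highest at P28 and near level over the 2 embryonic ages. Tcf21, the transcription factor of lung interstitial fibroblasts, was at 30.1, 88.8, 18.8 and 130.3, with the E18.5 library closer to P28 than P7 was.

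Further members of the alveolar list had their highest level at P28: the secreted protein Spon1 at 0.846, 12.1, 14.8 and 141, the bone morphogenetic protein Bmp3 at 2.87, 3.54, 7.13 and 104, the carboxylesterase Ces1d at 0.730, 5.84, 5.73 and 83.3 and the receptor Fgfr4 at 2.22, 2.93, 4.22 and 18.1. Col13a1, the transmembrane collagen that gives the list its name, was at 3.06, 4.98, 2.19 and 8.05 (log2 difference 1.16), low in all 4 libraries. On the adventitial list the actin-severing protein Gsn was at 5.98, 15.5, 9.68 and 447, the stem cell antigen Ly6a at 0.657, 2.25, 62.1 and 149.8, the complement factor C3 at 15.9, 4.51, 68.7 and 417 and the alarmin Il33 at 0.600, 1.20, 1.43 and 32.3. Ly6a and its neighbour Ly6c1 (0.247, 2.26, 11.8 and 28.7) are also carried by endothelium, whose list was higher at P28 in 19 of 20 members and whose summed share was higher still at P7; the part of those cells in these 2 values was not tested. S100a4 and Lsp1, a calcium-binding and an actin-binding protein that leukocytes carry as well, were lower at P28, at 22.9, 2.76, 0.739 and 2.34 and 38, 34, 14.5 and 3.78, and the macrophage and granulocyte list was lower in 20 of 21 members; its part was not tested either.

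Lower genes outnumbered higher ones on the myofibroblast and smooth muscle lists. The alveolar myofibroblast list gave 9 lower and 3 higher of 17 (median -1.15). Tgfbi, a secreted adhesion protein induced by TGF-beta, was at 187, 541, 340.4 and 12.3 scaled FPKM, the EGF-like gene Egfem1 at 18.1, 127, 114 and 0.0642, and the Z-disc protein Pdlim3 at 17.1, 101, 108 and 1.09. All 3 peaked at E18.5 or P7 and were lowest at P28, so the ends of the course leave out their highest levels. Fgf18, a growth factor of the alveolar phase, was at 34.2, 25.9, 40.4 and 3.80, the nucleotide receptor P2ry14 at 14.7, 18.2, 142 and 0.762 and the Wnt pathway receptor Lgr6 at 12.3, 14.5, 7.12 and 0.636. Igfbp5, an IGF-binding protein of the same list, went the other way, at 20.5, 16.9, 103 and 149.7.

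Of the contractile genes 7 of 17 were lower and 2 higher, but the median was only -0.28. The 7 lower ones hold the defining smooth muscle transcripts: the smooth muscle myosin Myh11 (GRCm38 chromosome 16, 14194535 to 14291372, minus strand) at 64.1, 88.1, 68.6 and 1.65, the smooth muscle actins Acta2 and Actg2 at 146, 68.0, 156 and 9.22 and at 43.1, 21.2, 71.9 and 0.863, and Myocd, the coactivator that drives them, at 10.5, 7.78, 3.87 and 0.329. For Myh11, Acta2 and Actg2 the P28 library lay far under each of the other 3. Tpm1, a tropomyosin shared by most cell types, was at 194, 408, 249 and 159.9 and was 1 of the 8 members within 2-fold. The pericyte list was split, with 3 higher and 3 lower of 8. Its potassium channel subunits Abcc9 and Kcnj8 and the adhesion molecule Mcam were higher, with log2 differences of 2.09, 2.03 and 1.27. Rgs5, a G protein regulator of pericytes, was at 8.55, 9.63, 6.83 and 0.164, and Postn, a matrix protein of myofibroblasts and pericytes, at 29.4, 103, 149 and 9.71.

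The lipofibroblast list, which describes the lipid-storing interstitial cell, gave 12 higher and 2 lower of 25 (median 0.97). The fatty acid carrier Cd36 was at 1.57, 3.94, 75.5 and 94.0 scaled FPKM, the leptin receptor Lepr at 1.57, 3.53, 6.36 and 16.9, the acyl-CoA ligase Acsl4 at 2.30, 2.50, 2.54 and 16.8, and Lrat, which stores retinol as esters, at 0.0911, 0.274, 0.0604 and 14.2. Between E18.5 and P7, where Cd36 rose most, the endothelial list went from 0.056% to 0.933% of summed FPKM, and it held 0.223% at P28. The part of endothelium in the Cd36 values was not tested. Scd1, a desaturase of fatty acids, was at 1.53, 4.38, 1.89 and 409, with nearly all of its signal at P28, and the fatty acid synthase Fasn and the elongase Elovl1 stood at 6.83, 5.76, 4.12 and 40.4 and 6.85, 5.45, 11.5 and 62.5. Alveolar type 2 cells make surfactant lipid with these enzymes, and their list without Lyz2 went from 0.0516% to 6.41% of summed FPKM between the same libraries; its part in the 3 values was not tested. Over the whole cholesterol and fatty acid synthesis list only 4 of 23 members were higher (17.4%, near the 19.7% of all genes). The elongase Elovl6 (log2 difference -1.53) was the 1 lower member.

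**Figure D4:**
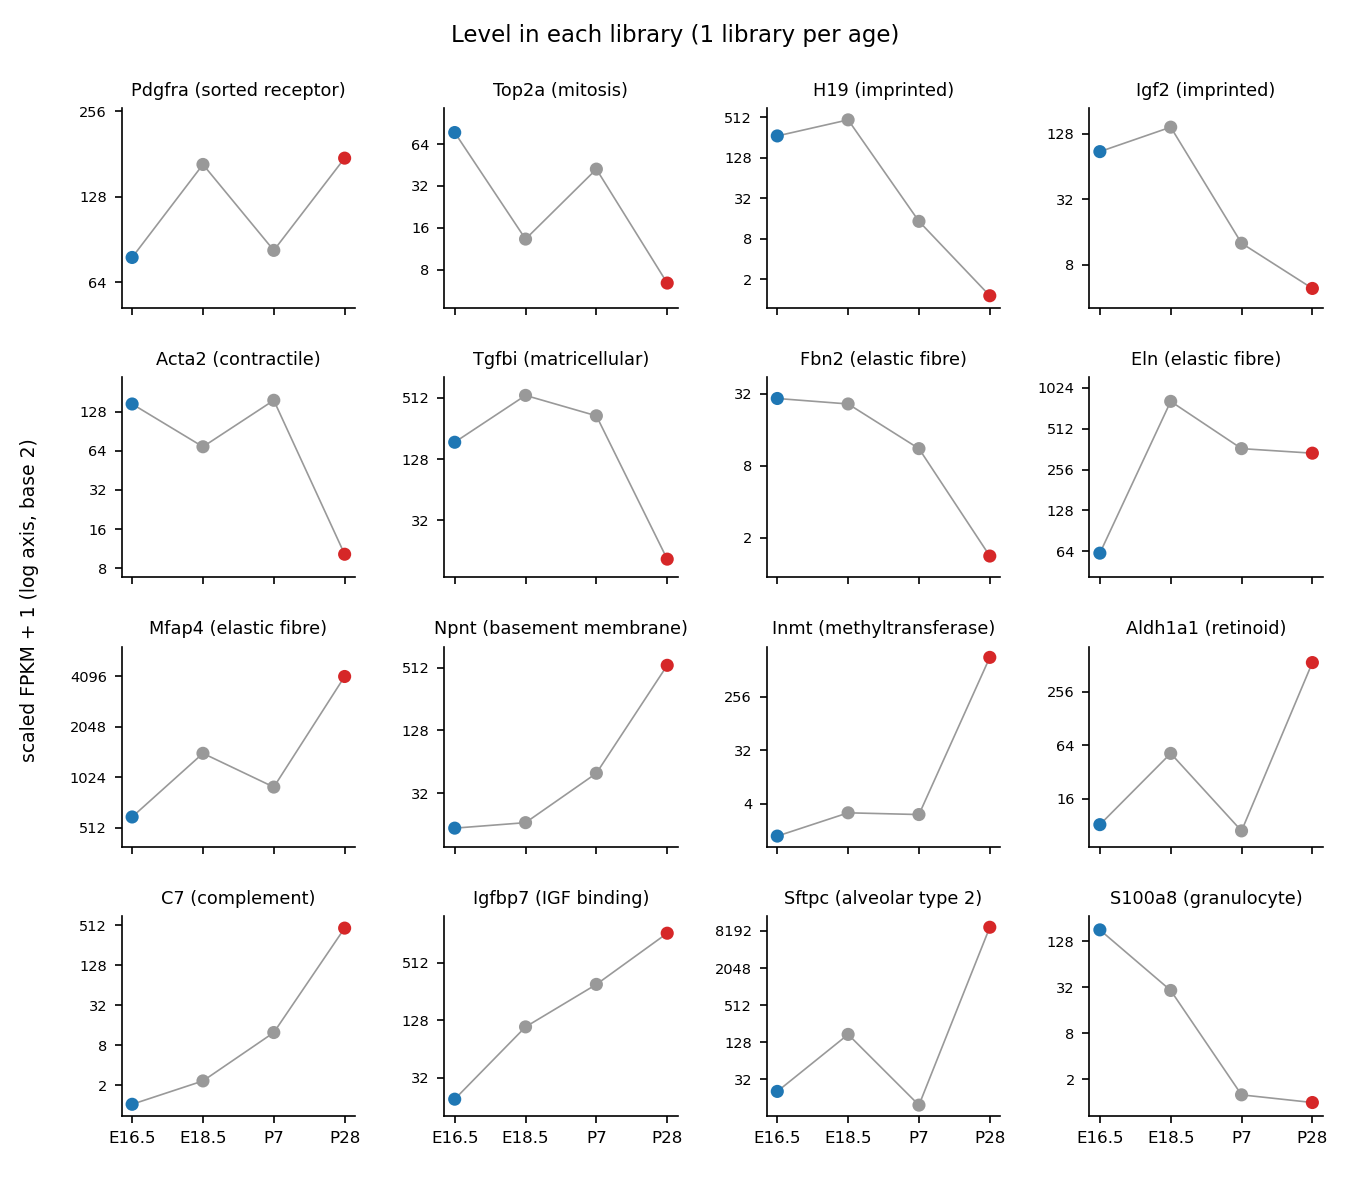
Scaled FPKM + 1 (log axis, base 2, its own range in each panel) of 16 genes in the 4 libraries in order of age, with E16.5 in blue, P28 in red and the ages between in grey. H19, Igf2 and S100a8 are highest in an embryonic library, Acta2 and Tgfbi stay high through P7, and Npnt, Inmt, C7 and Sftpc have by far their highest level at P28.

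Collagen genes differed moderately, and those past 2-fold were all higher. Of 11 fibrillar and network collagens 5 were at least 2-fold higher and 0 lower, with a median of 0.96, against 19.7% and 15% of all genes. Col1a2 lay at the threshold, with a log2 difference of 1.003, and before scaling it was under 2-fold, at 337 and 637. The chains of collagen I and III, which bear the tension of the lung wall, stood at 237, 261, 303 and 514 scaled FPKM for Col1a1, 294, 319, 379 and 590.3 for Col1a2 and 332, 322, 543 and 958 for Col3a1. Each was near level in the embryonic libraries and highest at P28. The collagen VI chains Col6a1, Col6a2 and Col6a3, of the beaded filaments around cells, had log2 differences of 1.30, 0.88 and 0.96 and stood higher at E18.5 than at P7. Smaller differences were seen for the fibril-regulating collagens, with 0.30 for Col5a1, 0.46 for Col5a2 and 0.84 for Col14a1, and Col12a1 was the single chain below 0, at -0.70. Of the processing enzymes 5 of 20 were higher (25%) and 2 lower (10%), near the shares over all genes (19.7% and 15%), with a median of 0.40. Single members differed more. The enhancers of procollagen C-proteinase Pcolce2 and Pcolce were at 1.74, 2.06, 11.1 and 259.5 and 20.5, 18.3, 27.1 and 157, the procollagen N-proteinase Adamts2 at 5.49, 16.2, 22.5 and 45.2, and the prolyl hydroxylase subunit P4ha3 stood at 2.20 at P28, against 41.3 at E16.5 and 88.3 at P7.

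Elastic fibre genes gave 10 higher and 4 lower of 20 (median 0.88), and within the list microfibril components differed in opposite directions. Fbn2, the fibrillin of fetal microfibrils, was at 28.3, 25.4, 10.2 and 0.404 scaled FPKM, while the microfibril-associated glycoproteins Mfap4 and Mfap5 were at 593, 1421, 894 and 4078 and 4.77, 7.38, 13.5 and 74.7. Fbn1, the fibrillin of adult tissue, was at 81.5, 140.4, 125 and 171 and Eln, elastin, at 61.0, 813, 364 and 337, with a peak at E18.5 (both were chosen after their values were seen). Efemp1, fibulin 3, was at 0.630, 2.62, 5.66 and 102, the elastin cross-linking oxidase Loxl1 at 2.19, 2.43, 11.5 and 33.5, and Ltbp4, which tethers latent TGF-beta to microfibrils, at 22.2, 75.6, 54.8 and 176. All 3 were highest at P28.

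In the basement membrane list 11 of 20 were higher and 2 lower (median 1.20, or 0.596 with a minimum of 20 scaled FPKM). Sparc, a collagen-binding glycoprotein, was at 283, 379.9, 1189.8 and 2146 scaled FPKM and climbed through the 4 ages. The collagen IV chains of the alveolar membrane, Col4a3 and Col4a5, were at 0.125, 1.5, 1.02 and 7.58 and 2.06, 3.97, 1.91 and 19.9, and the linker nidogen 2, Nid2, went down in order of age, at 16.7, 9.51, 8.63 and 2.43. Col4a3 is known in alveolar type 1 cells as well, and all 10 members of their list compared were higher at P28; the part of those cells was not tested.

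Proteoglycans were higher in 10 and lower in 3 of 16 members compared (median 1.84). Another 14 stayed under the minimum, and over all 30 the median was 0.155. The large versican, Vcan, of provisional fetal matrix, was at 90.6, 42.4, 22.3 and 7.84 scaled FPKM and descended in order of age. The small leucine-rich proteoglycans stood the other way round, Dcn at 55.1, 62.3, 25.6 and 323, Ogn at 13.8, 26.5, 15.6 and 188, Prelp at 16.8, 33.2, 48.4 and 435, Podn at 1.34, 7.24, 16.4 and 46.6 and Bgn, biglycan, at 217, 602, 417 and 727. P28 was the highest library for each of these 5. Among matricellular proteins (13 higher and 6 lower of 21) Mgp, which inhibits calcification, was at 286, 915, 265 and 2276, and dermatopontin, Dpt, which binds decorin, at 11.1, 44.8, 93 and 220.3. Wisp2, of the CCN family, was listed at 0 at E16.5 and stood at 21.9 at P28.

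None of the 26 matrix proteases and inhibitors compared was lower and 17 were higher (median 1.60, or 0.915 with no minimum). Of the inhibitors Serping1, the C1 inhibitor, was at 22.4, 54.9, 61.2 and 566 scaled FPKM, Timp3, the matrix-bound inhibitor of metalloproteinases, at 11.4, 62.2, 56.1 and 193, and Serpinf1, pigment epithelium-derived factor, at 3.40, 6.52, 6.33 and 65.9. Of the proteases Adamts15, which cleaves versican, was at 1.16, 5.86, 5.13 and 44.9, and stromelysin 1, Mmp3, was listed at 0 at E16.5 and at 11.4 at P28.

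**Figure D5:**
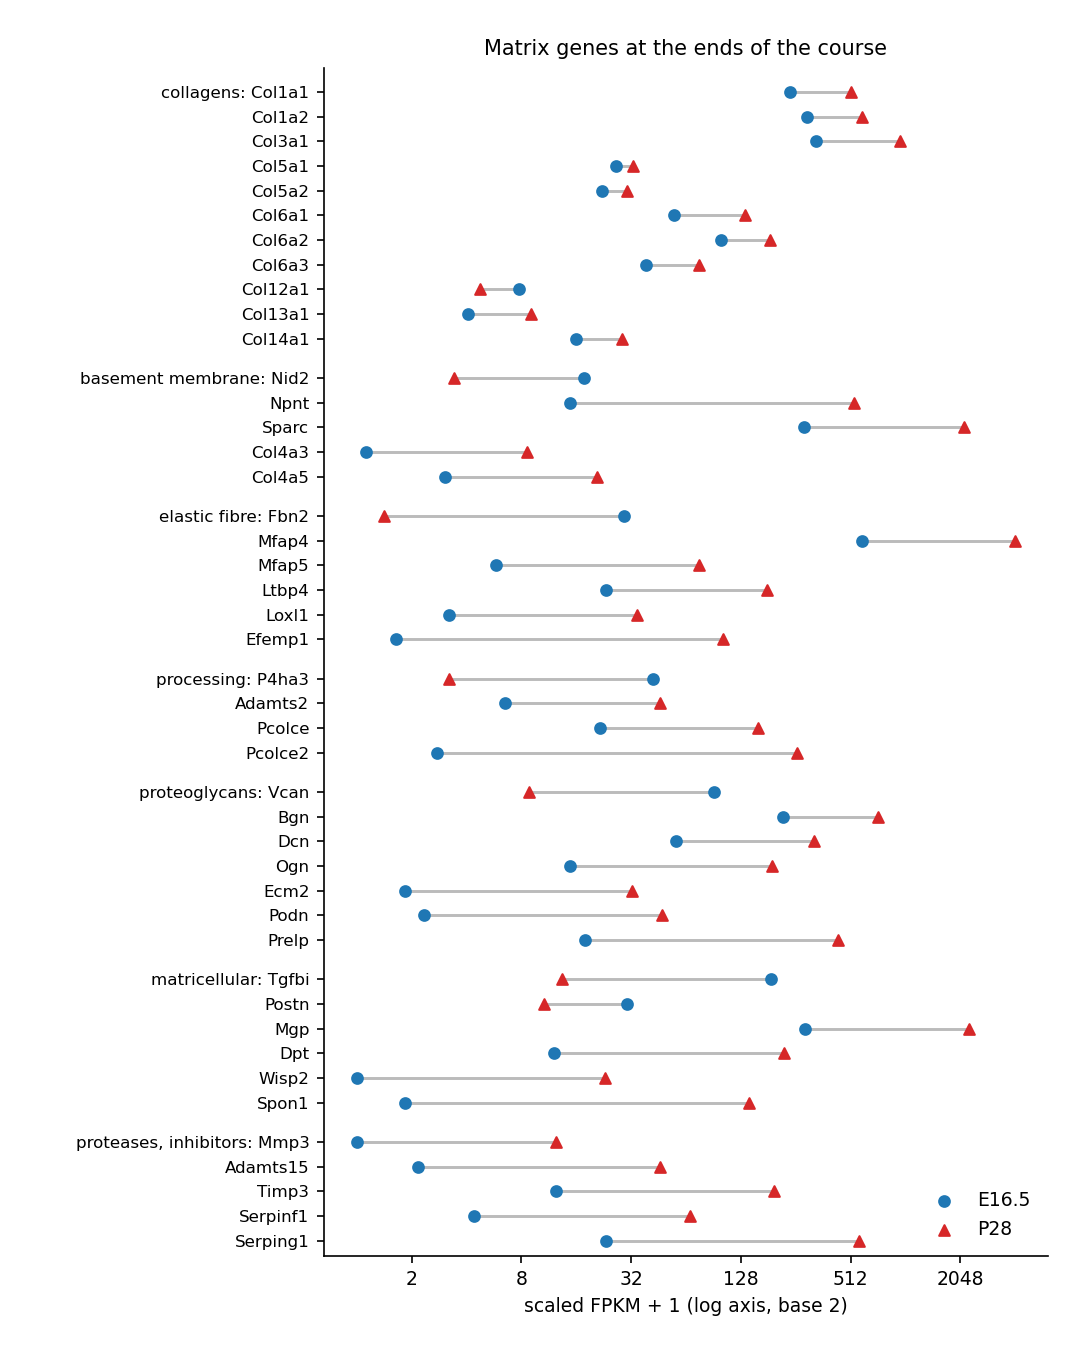
Scaled FPKM + 1 (log axis, base 2) of matrix genes in the E16.5 library (blue circles) and the P28 library (red triangles), by group, 1 library per age. Most red points lie to the right, with Nid2, Fbn2, P4ha3, Vcan, Tgfbi, Postn and Col12a1 reversed, and genes listed at 0 stand at 1.

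In the PDGF family 2 of 3 members compared were higher. Beside Pdgfra, given above, its ligand Pdgfa was at 4.37, 9.47, 11.7 and 14.2 scaled FPKM, climbing through the ages. The beta receptor Pdgfrb, of pericytes and smooth muscle, was low at both ends, at 6.82 at E16.5 and 4.70 at P28. In the Hedgehog pathway, by which epithelium instructs fetal mesenchyme, 3 of 7 were lower and 2 higher. The receptor and pathway target Ptch1 was at 52.8, 33.2, 37.2 and 15.9, the decoy receptor Hhip at 24.2, 90.3, 5.87 and 7.06 and the transcription factor Gli3 at 6.87, 4.87, 5.57 and 1.90. The ligand-binding coreceptors Gas1 and Cdon were higher, at 6.37, 5.62, 7.25 and 33.1 and 2.16, 1.63, 1.98 and 6.85, while the transducer Smo and the coreceptor Boc were within 2-fold (-0.57 and 0.18).

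The Wnt list gave 7 lower and 4 higher of 22 (median -0.22, which turned positive with housekeeping scaling, at 0.05, with no minimum, at 0.15, and with a minimum of 20 scaled FPKM, at 0.17). Its nuclear effectors Lef1 and Tcf7 stood at 14.5, 9.17, 8.51 and 0.0561 and 34.5, 17.6, 24.2 and 3.14 scaled FPKM, both lowest at P28. The ligand-potentiating Rspo1 and the receptor Fzd4 were higher, at 1.14, 2.28, 5.41 and 12.3 and 1.43, 2.92, 23.3 and 14.0, and the receptor Fzd1, the most abundant member, was at 83.5, 87.0, 72.9 and 43.7. Fzd4 was highest at P7, as was the endothelial list, and the part of those cells was not tested. In the FGF list 9 of 20 were higher and 3 lower (median 0.92). The ligands Fgf1 and Fgf2 were at 0.349, 1.46, 5.83 and 20.7 and 2.18, 12.5, 4.83 and 21.6 and the FGF target Etv5 at 5.25, 3.13, 6.59 and 32.4; Etv5 is on the alveolar type 2 list too, and the part of those cells was not tested. Sulf2, a sulfatase that trims the heparan sulfate on which FGFs act, was lower (log2 difference -1.93).

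TGF-beta and BMP genes were higher in 10 and lower in 0 of 29, with a median of 0.58. After Bmp3 the largest were the BMP antagonist Chrdl1, at 0.254, 0.271, 0.222 and 6.49, Bmp6, at 1.46, 4.08, 17.8 and 9.29, the type I receptor Acvrl1, at 3.84, 7.59, 28.4 and 17.1, and Ltbp1, at 8.60, 10.8, 11.2 and 32.8. Bmp6 and Acvrl1 are known in endothelium and were highest at P7, as was the endothelial list; its part was not tested. Of 6 Notch genes 2 were higher and 1 lower: the targets Hey1 and Heyl had log2 differences of 1.29 and 2.12, and the target Hes1 one of -2.37.

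In the insulin-like growth factor system both ligands were lower and 4 of 5 binding proteins higher, the other, Igfbp4, having a log2 difference of 0.93. Igf1 was at 114, 152, 49.4 and 46.8 scaled FPKM, Igf2 is given above, and the scavenging receptor Igf2r was at 40.1, 38.6, 17.7 and 14.8. Against them Igfbp7 was at 18.0, 108, 302 and 1041, Igfbp3 at 1.27, 27.6, 3.04 and 61.6 and Igfbp6 at 0.218, 1.53, 2.39 and 24.7. Igfbp7 and Igfbp6 climbed through the 4 ages, and Igfbp3 had a first high level at E18.5. The signalling receptors and adaptors Igf1r, Insr, Irs1 and Irs2 lay within 2-fold, with log2 differences of -0.20, 0.52, -0.41 and -0.06. Of the secreted growth and guidance factors 14 of 24 were higher and 5 lower. Slit3, a repellent of axons, was at 9.74, 10.6, 8.39 and 62.2, the hepatocyte growth factor Hgf at 0.870, 0.824, 3.50 and 10.1, and netrin 1, Ntn1, at 0.570, 0.538, 8.90 and 8.38. Vegfa, the vascular growth factor that alveolar type 1 cells also make, was at 6.42, 9.25, 12.3 and 27.8.

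Retinoid genes were higher in 7 and lower in 0 of 11 members compared (median 2.41). Another 9 stayed under the minimum, and over all 20 the median was 0.668. Aldh1a1 (GRCm38 chromosome 19, 20492715 to 20643465, plus strand) and Aldh1a2, the dehydrogenases that make retinoic acid, were at 7.18, 50.9, 5.96 and 546 and 2.0, 3.46, 13.9 and 44.2 scaled FPKM, the reductase Dhrs3, which turns retinal back to retinol, at 7.32, 7.03, 9.96 and 45.0, and Rarres2, the chemokine-like chemerin, at 3.50, 27.6, 29.6 and 85.4. For Aldh1a1 the E18.5 library was the next highest after P28. Aldh1a2 is also a mesothelial marker, and the mesothelium list was higher in 7 of 8 members; its part was not tested.

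Transcription factors of lung mesenchyme leaned toward the embryonic library, with 15 of 46 lower, 8 higher and a median of -0.47. After Plagl1 and Sox11 the largest lower difference was that of the orphan nuclear receptor Nr4a1, at 52.4, 63.8, 16 and 10.4 scaled FPKM, an early response gene. The higher members with the largest differences were the glucocorticoid-induced factors Klf9 and Klf15, at 3.22, 64.1, 6.24 and 41.5 and 1.11, 3.50, 0.264 and 10.7. For Klf9 the scaled E18.5 level was above that at P28, while before scaling it was below, at 37.2 against 44.8.

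Genes of complement, the plasma cascade that marks and lyses microbes, had the highest median of the lists that do not describe another cell type, at 3.68, with 14 higher and 4 lower of 18. C7, of the membrane attack complex (GRCm38 chromosome 15, 4988762 to 5063740, minus strand), was at 0.0371, 1.33, 11.4 and 459 scaled FPKM, C3, the central component, at the levels given above, and C1s, the protease of the first component, at 0.539, 2.07, 8.97 and 90.9. These 3 were highest at P28. The 4 lower members include C1qb and C1qc, chains of the recognition unit that macrophages make, at 47.0 and 26.7 in the E16.5 library. At P28 C1qb was listed at 0 and C1qc stood at 0.0748.

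Class I histocompatibility genes, which present peptides on all nucleated cells, were higher in 6 and lower in 0 of 12: H2-K1 was at 15.1, 3.80, 32.9 and 117 scaled FPKM, H2-D1 at 15.1, 3.68, 35 and 76.6 and their light chain B2m at 255, 225, 363 and 586, lowest at E18.5 in each case. Class I heavy chain genes are close copies of each other, and reads may be split among them. The class II genes H2-Aa and H2-Ab1, of antigen-presenting cells and adult alveolar type 2 cells, were at 7.45 and 10.3 at the first age and 129.9 and 77.8 at the last. The macrophage and granulocyte list without Lyz2 was lower at P28 and the alveolar type 2 list higher, and their part was not tested. Interferon response genes were higher in 12 and lower in 1 of 17, among them the antiviral membrane protein Ifitm3 at 117, 502, 239.8 and 691 and the guanylate-binding protein Gbp2 at 0.828, 1.75, 3.94 and 13.8. Of the chemokines Cxcl14 was higher, at 0.770, 0.981, 0.539 and 26.6, and Cxcl2 and Ccl2, which call neutrophils and monocytes, were lower, at 22.8 and 9.88 at E16.5. At P28 Cxcl2 was listed at 0 and Ccl2 stood at 0.524.

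Drug and xenobiotic metabolism was higher in 22 and lower in 0 of 27 members compared, against 19.7% and 15% of all genes, with a median of 3.14. After Inmt the largest differences were those of the cytochrome P450 enzyme Cyp2f2, of Aldh1a1 and Ces1d, and of the glutathione transferase Gsta3, at 0.0709, 0.181, 0.701 and 35.4 scaled FPKM. Cyp2f2 is a club cell enzyme, and the airway list went from 0.0488% to 9.58% of summed FPKM, or from 0.0477% to 0.837% without Scgb1a1. The part of those cells in the other members was not tested. Antioxidant genes gave 9 higher and 3 lower of 27: the extracellular superoxide dismutase Sod3 was at 0.126, 1.75, 8.86 and 288, the secreted glutathione peroxidase Gpx3 at 14.3, 59.9, 11.4 and 579, the metallothionein Mt2 at 2.12, 25.7, 1.12 and 27.1 and the glutathione-synthesis subunit Gclc at 3.73, 1.78, 5.59 and 28.7. Sod3 climbed with age and Gpx3 did not, being higher at E18.5 than at P7.

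Most genes of the cytosolic ribosome were lower at P28. Of 75 cytosolic ribosomal protein genes, all at 5 scaled FPKM or more, 59 were at least 2-fold lower and 1 higher, with a median of -1.27. Together they held 12.6% of the FPKM sum in the E16.5 library and 4.25% in that of P28. Rps26, Rpsa, Rpl12 and Rpl13a had the largest differences, at -2.01, -2.0, -1.89 and -1.77. The higher member, Rpl34, at 6.16, 168, 22.5 and 35.9, has a near-identical pseudogene in the table, and reads of such copies may be split between them. Splicing factors gave 15 lower and 1 higher of 38 (median -0.91), with Hnrnpa1, a splicing repressor, at 71.3, 23.9, 55.3 and 10.6 and Nono, a paraspeckle protein, at 147, 65.1, 98.4 and 46.2.

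Glycolytic and hypoxia-induced genes were lower in 9 and higher in 4 of 17 (median -1.13). Gapdh, often taken as a reference gene, was at 311, 112, 117 and 81.7 scaled FPKM, the mutase Pgam1 at 90.4, 28.2, 25.6 and 25.6 and Egln3, an oxygen-sensing prolyl hydroxylase, at 12.5, 13.7, 9.88 and 0.846. For Gapdh and Pgam1 the E16.5 library stood above the other 3. The 4 higher members were Vegfa, the vasodilator adrenomedullin, Adm, at 0.239, 0.552, 0.730 and 6.58, the regulator of glycolytic flux Pfkfb3 and the mitophagy receptor Bnip3, with log2 differences of 1.73 and 1.02 (the last 2 chosen after their values were seen). Oxidative phosphorylation was near level, with 35 of 36 within 2-fold and a median of -0.39; its most abundant member, the ATP synthase chain Atp5b, was at 671, 259, 523 and 479.

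Many, but not all, genes of the glucocorticoid response and clock lists were higher at P28. The glucocorticoid response list gave 12 higher and 1 lower of 18 (median 1.99). Hsd11b1, the enzyme that regenerates active glucocorticoid inside cells, was at 4.74, 21.4, 6.18 and 232 scaled FPKM, the zinc finger factor Zbtb16 at 2.47, 13.6, 0.230 and 27.1 and Errfi1, a feedback inhibitor of EGF receptors, at 23.8, 81.3, 19.9 and 168. The last of these and Klf9 were high at E18.5 and low at P7, and for the list the median position on the way from E16.5 to P28 was 61.7% at E18.5 and 5.5% at P7. Nr1d1, the clock repressor that swings over the day, was at 0.391, 0.754, 4.82 and 91.6, and the clock activator Rora at 3.55, 16.1, 9.97 and 20.6. The clock list gave 5 higher and 0 lower of 9 members compared (median 1.21). Another 8 stayed under the minimum, and with no minimum the median was 0.706. The hour at which lungs were taken is not given in the labels, so age and time of day cannot be told apart for this list.

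Early response genes that tissue dissociation can induce gave 7 lower and 4 higher of 26 (median -0.63). Ier3 and Nr4a2, both induced within minutes of a stimulus, were at 41.2, 73.6, 11.7 and 10.4 and 10.8, 37.4, 4.50 and 2.89 scaled FPKM, while Dusp1, a phosphatase of the same early response, was at 131, 257, 158 and 471. Heat shock and chaperone genes were mostly within 2-fold (18 of 24), with the small heat shock proteins Hspb1 and Hspb8 and the endoplasmic reticulum stress gene Herpud1 higher, at log2 differences of 1.78, 2.26 and 2.20. Of 29 housekeeping genes 23 lay within 2-fold, 4 were lower and 2 higher, with a median of -0.34, and scaling on these genes put the median of all genes at 0.21.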

How the data were processed

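The deposited table holds FPKM computed by the authors, 1 column for each of the 4 ages and 23931 entries. TopHat, TopHat2 2.0.9, GRCm38 and mm10 are named in the submitters' processing notes. The sources used here do not say which program made the FPKM or what each tool did. Per the labels, total RNA was used, with a QIAGEN kit, Verso reverse transcription and paired-end Nextera XT libraries. Without read totals the depth of a library and the precision of a single value are unknown, and a value of 0 may stand for a failed estimate.

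Entries sharing a symbol were summed (258 symbols). Each column was divided by its median ratio to the gene's geometric mean over 7930 genes at 1 FPKM or more in all 4 columns (factors in order of age 1.15, 0.581, 1.38 and 1.08). Differences were taken in log2(scaled FPKM + 1) and called from 1 upward (2-fold) at a minimum of 5 scaled FPKM in the higher library. No test was run. The 60 gene lists hold 1526 entries, of which 1513 were in the table, and they share members. The members, lists and thresholds were chosen with earlier results of these data known.

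Named genes are Pdgfra, the 15 largest differences in each direction at 10 scaled FPKM or more (predicted genes and small RNAs passed over), from every list its most abundant member and the 5 that differed most, of each list for another cell type the 3 top members by level and the defining markers, all collagen, PDGF, Hedgehog and IGF members compared, and the 10 highest genes of each library. Vim, Ptprc, Cd68, Xist, Ddx3y, Fbn1, Eln, Pfkfb3 and Bnip3 are named outside this rule. Coordinates are GENCODE M21 on GRCm38. Promoters were matched by symbol or synonym. Of all higher and lower genes only 76.4% and 77.5% had a promoter in the table, so the planned motif counts over those sets were void. The code was tested on simulated data. As alternatives, the pseudocount was set to 0.1 or 5 and the minimum to 0 or 20, with a 4-fold threshold, other scalings, and leaving out genes of other cell types or symbols with several entries. Python 3.11.15, numpy 2.4.6, pandas 2.3.3 and matplotlib 3.10.9 were used.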

Additional observations from a re-analysis of the deposited data

How the results depend on the processing

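The counts of genes higher at P28 (1311) and genes lower at P28 (997) depend on the thresholds. With no minimum they were 1981 and 1508, with a minimum of 20 scaled FPKM 546 and 391, and with a 4-fold threshold 594 and 421. A pseudocount of 5 gave 655 lower genes. The other settings kept both counts within 1.5 times, among them 5 other scalings, of which the one without E18.5 was chosen after seeing the data. Housekeeping scaling put the median of all genes at 0.21 and the share of higher among called genes at 65.7%, and upper-quartile scaling put them at -0.11 and 50.6%, against 0.02 and 56.8%. Of 275 named genes past 2-fold, 197 stayed so under each setting that gave them a value, other than the 4-fold threshold. No called difference turned its direction. The settings were applied only to the difference between P28 and E16.5, so where E18.5 and P7 stood among the libraries was not checked. Leaving out genes of other cell types gave values for only 240 of 318 named genes and 44 of 57 lists, and the rest were not checked by it. Of 34 lists with a median past 2-fold, 22 stayed so under each setting that gave them a value, other than the 4-fold threshold. Taking all members with no minimum ended this for 10: proteoglycans (0.155), erythroid and platelet (-0.291), glycolysis (-0.344), retinoid (0.668), clock (0.706), chemokines (0.731), class I (0.886), matrix proteases (0.915), lymphocyte and mast cell (-0.961) and myofibroblast (-0.993). Scalings did so for myofibroblast (-0.998) and glycolysis (-0.96) on housekeeping genes, class I on the upper quartile (0.957), and the clock on FPKM as deposited (0.813). A pseudocount of 5 did so for interferon response (0.754) and basement membrane (0.681), among others. No paired analysis was possible because each age has 1 library and the labels number no replicates. Low levels cannot be told from sampling noise without counts.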

Other observations

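Gene families were counted by the form of their symbols, whether or not a member is on a list above, and were chosen after their values were seen. Of 23 histone cluster genes compared 20 were at least 2-fold lower at P28 and 0 higher (median log2 difference -3.18). Hist1h2bm, a histone H2B gene, stood at 83.9, 11.2, 25.5 and 2.79 scaled FPKM in order of age, and Hist1h4d, a histone H4 gene, at 622, 430.0, 251 and 146. Histone messages are made in S phase and mostly lack a poly(A) tail, and many of the genes are close copies among which reads may be split. The labels do not state how cDNA was primed. Of 11 condensin and cohesin genes 7 were lower.

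Solute carriers, membrane transporters of ions, nutrients and metals, leaned to P28, with 36 of 91 higher and 6 lower (median 0.77). Among them is Slc34a2 of the alveolar type 2 list, whose share of summed FPKM was also higher at P28; the part of those cells was not tested. Slc43a3, which carries purine bases, was at 16.6, 15.9, 69.8 and 136, and Slc39a8, a zinc and manganese importer, at 1.17, 2.59, 3.61 and 31.0. The glucose carrier Slc2a1 was lower, at 19.8, 39.3, 2.07 and 6.55. Of 12 glutathione transferases 8 were higher and 0 lower, and of 10 cytochrome P450 genes 7 and 0. Of 5 Hox genes compared 3 were lower, all of the Hoxb cluster: Hoxb3, Hoxb4 and Hoxb5, with log2 differences of -1.17, -1.25 and -1.19.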
